A study of Drosophila melanogaster with 6 samples.

Results

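The genes that copy DNA, control the entry into S phase and rebuild chromatin behind the replication fork were followed in Drosophila leg discs, the larval epithelial sacs that form the adult legs, as prepupal development begins. A list of 47 genes was used, chosen by their function in origin licensing, fork assembly and synthesis, nucleotide supply, E2F control and chromatin assembly, out of 15125 genes in the files, genes with the same values counted once. PolyA+ RNA was sequenced from discs at 2h APF (2 hours after puparium formation) and at wL3 (wandering larvae of the last instar), with 3 libraries per stage. All animals carried the white [1118] genotype. The deposited extraction protocol names embryos, whereas the study design and the methods name leg discs. All 10 leg disc marker genes that were examined, among them Dll, dac and hth, were detected in every library, with a summed level between 713 and 728 TPM (transcript abundance scaled by length and library) at 2h APF and between 775 and 794 TPM at wL3. Whether these markers tell leg discs from embryos was not tested.

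Replication starts from origins that the origin recognition complex (ORC) marks. Before S phase, Cdc6 and Cdt1 (encoded by dup in flies) load the ring of Mcm proteins there as an inactive helicase, and geminin binds Cdt1 and prevents a further loading in the same cycle. Cdc45 then joins the active helicase, polymerase alpha with its primase starts each strand, and polymerases delta and epsilon extend it on the sliding clamp PCNA. Transcription of many of these genes depends on E2F factors, which the retinoblastoma protein Rbf restrains and which Cyclin E with Cdk2 releases. Cells of leg discs divide through larval life.

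The estimated counts summed to between 24395318 and 30880112 per library at 2h APF and between 27514509 and 33373176 at wL3. The replicates of a stage correlated across genes with Pearson's r between 0.974 and 0.992 on log2 CPM (counts scaled to library size with edgeR's TMM factors), where genes are not independent replicates. The wL3 libraries differed in the RNA of other tissues. The 5 fat body markers summed to 288, 401 and 98.4 TPM in 2h APF replicates 1, 2 and 3, against 22.5, 2132 and 1295 TPM in wL3 replicates 1, 2 and 3, and the 6 muscle markers to between 30.4 and 31.3 TPM at 2h APF, against 44.6, 195 and 173 TPM in the 3 wL3 libraries. Single muscle genes differed, as Tm2 was listed at 0 in every 2h APF library. Act57B, the only one of the 6 in which the stages overlapped, had between 34.3 and 36.1 CPM at 2h APF. In wL3 replicates 1, 2 and 3 it had 25.3, 96.6 and 100.2 CPM. The salivary glue markers summed to between 0.718 and 1.18 TPM at 2h APF and to between 187 and 548 TPM at wL3. In these bulk libraries, fewer cells of a type and less RNA per cell cannot be told apart.

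All 47 genes passed the filter on low counts, with at least 87 counts in every library, and 44 of them fell at 2h APF, E2f1 and E2f2 rose, and only Cdc6 was not called (edgeR's quasi-likelihood test, adjusted p under 0.05, with Benjamini-Hochberg adjustment over the 8935 genes tested). Thus 93.6% of the list was lower, whereas of all genes tested 67.5% passed in either direction, 36.9% as lower and 30.6% as higher. The median log2 fold change of the 47 genes was -1.12, beside -0.04 for all genes tested. Beyond 1 log2 unit, 29 of the 47 genes fell, which for all genes was the case in 8.89%, and none rose, which for all genes was the case in 9.74%. In 45 of the 47 genes every 2h APF library lay below every wL3 library (40.0% of all genes), and in the remaining pair, E2f1 and E2f2, every 2h APF library lay above (33.4% of all genes, 73.4% in either direction). Among the 44 genes that fell, the 25th and 75th percentiles of the log2 fold change were -1.27 and -0.91 on the log2 scale.

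**Figure D1:**
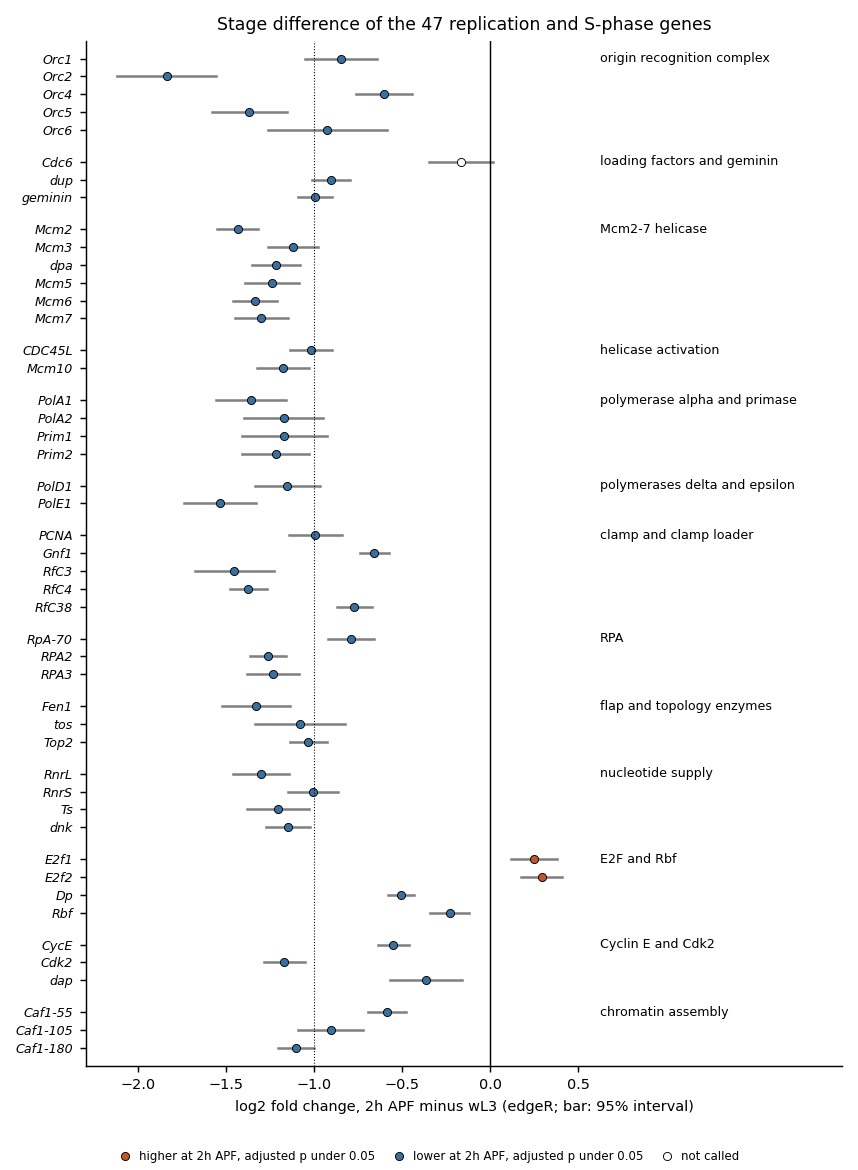
Log2 fold change (2h APF minus wL3, x axis) of each of the 47 genes, grouped by step, with its 95% interval from edgeR as a bar; filled points passed an adjusted p of 0.05 and the dotted line marks a log2 fold change of -1. All points lie left of 0 except those of E2f1 and E2f2, and the interval of Cdc6 reaches over 0.

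Within the origin recognition complex, whose subunits bind origins as 1 assembly, the 5 listed subunits all fell, but by unequal amounts. Orc2 had 5.88, 5.66 and 7.66 CPM at 2h APF, against 22.3, 23.4 and 23.2 CPM at wL3, so that its highest 2h APF library stood far below its lowest wL3 library. Its fall was the largest of the list (log2 fold change -1.84, standard error 0.119, adjusted p = 1.34e-05, edgeR), a level 3.59-fold higher at wL3. Orc5, a subunit of the ATP-binding family of the complex, fell by 1.37 on the log2 scale (95% interval -1.58 to -1.16). Orc1, the largest subunit and an ATPase, and Orc6, the smallest and only loosely related subunit, fell by 0.85 and 0.93, where Orc6 rested on the fewest reads of the list (87, 91 and 100 counts at 2h APF, against 206, 208 and 228 counts at wL3). Orc4 changed least, with 13.6, 13.7 and 13.8 CPM at 2h APF, against 20.9, 22.3 and 19.2 CPM at wL3 (log2 fold change -0.60, standard error 0.0675, adjusted p = 1.96e-04, edgeR). The 95% intervals of Orc2 and Orc4 did not overlap. By TPM, the subunits were close to each other at wL3, with means between 9.48 TPM for Orc1 and 17.8 TPM for Orc4.

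Among the factors that load and restrain the helicase, dup and geminin fell together and Cdc6 did not pass the test. The Cdt1 gene dup had 29.7, 31.3 and 31.6 CPM at 2h APF, against 55.6, 57.5 and 60.4 CPM at wL3 (log2 fold change -0.90, standard error 0.0455, adjusted p = 4.66e-06, edgeR). Its inhibitor geminin had 53.3, 52.8 and 57.1 CPM at 2h APF, against 109, 110.0 and 107 CPM at wL3, which is 50.1% of the wL3 mean (log2 fold change -0.997, standard error 0.0402, adjusted p = 2.31e-06, edgeR). The stages did not overlap in either gene. As a ratio of TPM, dup stood to geminin at 0.144, 0.155 and 0.145 at 2h APF and 0.133, 0.135 and 0.146 at wL3, so the stages overlapped in this ratio, one of 7 ratios chosen after the values were seen. Cdc6, the ATPase that works with ORC in loading, had 21.5, 21.0 and 19.2 CPM at 2h APF, against 21.7, 25.3 and 22.3 CPM at wL3. Its wL3 libraries were all above those of 2h APF, but by less than the test resolved (log2 fold change -0.17, standard error 0.0767, adjusted p = 0.0925, edgeR, 95% interval -0.35 to 0.02). Scaled by total counts instead, Cdc6 passed the threshold as lower (log2 fold change -0.28, adjusted p = 0.0182, edgeR).

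The 6 subunits of the replicative helicase, Mcm2, Mcm3, dpa (which encodes Mcm4), Mcm5, Mcm6 and Mcm7, all fell by more than 1 log2 unit and in a narrow range, from -1.12 for Mcm3 to -1.44 for Mcm2. A fall beyond 1 log2 unit was called in 8.89% of all genes tested. Mcm2 had 41.8, 39.1 and 40.5 CPM at 2h APF, against 104, 114 and 110.4 CPM at wL3 (log2 fold change -1.44, standard error 0.0487, adjusted p = 1.62e-06, edgeR). Mcm7 had 53.6, 50.0 and 57.2 CPM at 2h APF, against 124, 134 and 138 CPM at wL3 (log2 fold change -1.30, standard error 0.0633, adjusted p = 4.17e-06, edgeR). In both genes the lowest wL3 library lay far above the highest 2h APF library. dpa, Mcm5 and Mcm6 stood at 43.0%, 42.3% and 39.6% of their wL3 mean CPM. Per length, the 6 subunits summed to 136 ± 7.25 TPM at 2h APF and to 329.7 ± 20.1 TPM at wL3 (SD, n = 3 each), and the means of single subunits lay between 16.9 TPM (Mcm2) and 28.3 TPM (Mcm7) at 2h APF and between 42.4 TPM (Mcm5) and 69.7 TPM (Mcm7) at wL3. The annotation places an antisense RNA over 2003 exonic bases of Mcm7, and whether the reads were assigned by strand is not given in the sources used here, so reads of both cannot be told apart, the antisense RNA not being among the quantified targets. CDC45L, which the annotation names Cdc45 and whose product completes the active helicase, had 28.1, 24.8 and 26.0 CPM at 2h APF, against 53.8, 52.3 and 53.8 CPM at wL3 (log2 fold change -1.02, standard error 0.0512, adjusted p = 4.66e-06, edgeR). Mcm10, which stabilises the helicase and polymerase alpha at the fork, fell by 1.18 on the log2 scale.

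The polymerase genes all fell. All 4 subunits of the polymerase alpha and primase complex fell beyond 1 log2 unit: the catalytic subunit PolA1 by 1.36, its partner PolA2 by 1.18, and the primase genes Prim1 and Prim2, which make the RNA primer, by 1.17 and 1.22 on the log2 scale. PolE1, the catalytic subunit of the leading strand polymerase epsilon, had 22.6, 19.4 and 19.0 CPM at 2h APF, against 53.5, 60.8 and 62.3 CPM at wL3, and its fall was the next in size after that of Orc2 (log2 fold change -1.54, standard error 0.0868, adjusted p = 7.42e-06, edgeR). PolD1, the catalytic subunit of polymerase delta, which copies the lagging strand, fell less as fitted (log2 fold change -1.15, standard error 0.0776, adjusted p = 1.60e-05, edgeR), with 23.5, 22.1 and 22.2 CPM at 2h APF, against 45.1, 55.3 and 50.7 CPM at wL3. In none of these 6 genes did a 2h APF library reach a wL3 library. Of all genes tested, 40.0% were lower without overlap and 8.89% were called lower beyond 1 log2 unit. These 6 genes were among the less abundant genes of the list, with means at 2h APF between 3.59 TPM for PolE1 and 8.25 TPM for PolD1.

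PCNA, the clamp that holds polymerases on DNA, had the highest mean TPM of the list at wL3. It had 83.1, 73.2 and 80.5 CPM at 2h APF, against 147, 159 and 166 CPM at wL3 (log2 fold change -0.99, standard error 0.0640, adjusted p = 1.31e-05, edgeR), a 1.99-fold higher level at wL3. The listed clamp loader genes fell by unequal amounts. RfC4 had 23.6, 23.8 and 25.2 CPM at 2h APF, against 60.4, 63.2 and 64.6 CPM at wL3 (log2 fold change -1.37, standard error 0.0440, adjusted p = 1.60e-06, edgeR) and RfC3 fell by 1.45, whereas the large subunit Gnf1 and RfC38 fell by 0.66 and 0.77 on the log2 scale. The 95% interval of Gnf1, -0.74 to -0.58, did not overlap that of RfC4, -1.48 to -1.27. Unequal falls were also measured in RPA, the trimer that coats single-stranded DNA. RPA2 and RPA3 fell by 1.26 and 1.24, and the large subunit RpA-70, which the annotation names RPA1, by 0.79 (95% interval -0.92 to -0.66). RpA-70 had 76.8, 72.1 and 79.3 CPM at 2h APF, against 124, 139.5 and 131 CPM at wL3. RfC38 shares 404 exonic bases with Nup160 on the opposite strand, a nuclear pore gene that was itself lower at 2h APF (79.3 ± 4.07 CPM at 2h APF and 153 ± 1.69 CPM at wL3, SD, n = 3 each).

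Of the enzymes that finish and untangle the strands, the flap nuclease gene Fen1 had 16.1, 15.1 and 18.7 CPM at 2h APF, against 41.3, 43.9 and 40.6 CPM at wL3 (log2 fold change -1.33, standard error 0.0815, adjusted p = 1.03e-05, edgeR). The exonuclease gene tos, with the lowest mean TPM of the list at both stages, had 3.22, 3.36 and 3.67 TPM at 2h APF, against 7.01, 8.06 and 6.68 TPM at wL3 (log2 fold change -1.08, standard error 0.108, adjusted p = 1.07e-04, edgeR). At 2h APF its mean differed from that of PolE1 by less than the SD of PolE1. Top2, which encodes the topoisomerase that decatenates sister DNA, had the highest mean CPM of the list at both stages, with 404, 391 and 434 CPM at 2h APF, against 819, 859 and 837 CPM at wL3 (log2 fold change -1.03, standard error 0.0452, adjusted p = 2.89e-06, edgeR). The ratio of Top2 to PCNA in TPM was 0.819, 0.903 and 0.913 at 2h APF and 0.945, 0.899 and 0.848 at wL3, and the stages overlapped.

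All 4 genes of nucleotide supply fell by more than 1 log2 unit as fitted, beside 8.89% of all genes tested. RnrL and RnrS encode the large and the small subunit of ribonucleotide reductase, which makes deoxynucleotides from ribonucleotides. RnrL had 60.2, 65.0 and 67.1 CPM at 2h APF, against 145, 166 and 165 CPM at wL3 (log2 fold change -1.31, standard error 0.0670, adjusted p = 5.12e-06, edgeR). RnrS had 58.8, 56.8 and 54.9 CPM at 2h APF, against 106, 122 and 115 CPM at wL3 (log2 fold change -1.01, standard error 0.0597, adjusted p = 9.09e-06, edgeR). The ratio of RnrL to RnrS in TPM, also chosen after the values were seen, was 0.613, 0.687 and 0.735 at 2h APF and 0.823, 0.816 and 0.855 at wL3. It was lower in every 2h APF library. The 95% intervals of the log2 fold changes, -1.465 to -1.147 for RnrL and -1.151 to -0.867 for RnrS, overlapped slightly. The thymidylate synthase gene Ts, whose product makes the nucleotide particular to DNA, had 19.3, 18.4 and 17.9 CPM at 2h APF, against 38.4, 44.1 and 45.8 CPM at wL3, and dnk, the deoxynucleoside kinase of the salvage route, had 21.2, 19.6 and 19.3 CPM at 2h APF, against 42.7, 45.7 and 44.8 CPM at wL3. Both stood well apart between the stages, with log2 fold changes of -1.21 and -1.15.

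**Figure D2:**
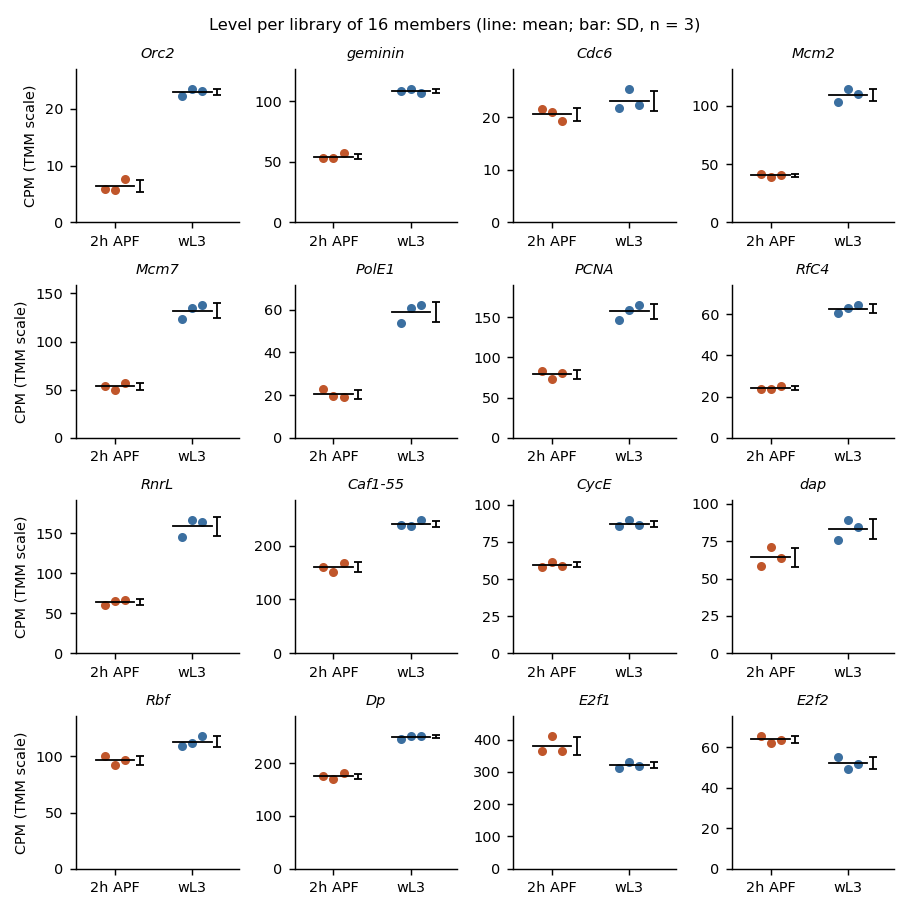
CPM on the TMM scale (y axis, from 0) of 16 of the genes in each library, with 2h APF left of wL3, the mean as a line and the SD as a bar (n = 3 each). In Orc2, geminin, Mcm2, Mcm7, PolE1, PCNA, RfC4 and RnrL the 2h APF points lie far below the wL3 points, in Cdc6, Rbf and dap they lie close to them, and in E2f1 and E2f2 they lie above.

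Of the 4 genes of E2F and Rbf, E2f1 and E2f2 rose and Dp and Rbf fell. E2f1, the activating E2F of flies, had 363, 412 and 365 CPM at 2h APF, against 312, 329.8 and 319 CPM at wL3, all higher at 2h APF (log2 fold change 0.25, standard error 0.0546, adjusted p = 0.00569, edgeR). E2f2, the repressing E2F, had 65.6, 62.0 and 63.6 CPM at 2h APF, against 55.2, 49.4 and 51.6 CPM at wL3, again with no overlap (log2 fold change 0.29, standard error 0.0494, adjusted p = 0.00159, edgeR). Both rises were small, to 119% and 122% of the wL3 mean, and kept their direction under the 17 alternatives that were run, with log2 fold changes between 0.13 and 0.29 for E2f1 and between 0.18 and 0.36 for E2f2. With wL3 replicate 1 as the only wL3 library, E2f2 no longer passed the threshold (log2 fold change 0.19, adjusted p = 0.0686, edgeR). Dp, the partner both E2F proteins need to bind DNA, had 175, 171 and 180.2 CPM at 2h APF, against 246, 250.2 and 252 CPM at wL3 (log2 fold change -0.51, standard error 0.0309, adjusted p = 1.01e-05, edgeR). Rbf, the retinoblastoma protein that holds E2F inactive, had 101, 92.3 and 96.5 CPM at 2h APF, against 109, 112 and 118 CPM at wL3 (log2 fold change -0.23, standard error 0.0473, adjusted p = 0.00391, edgeR), and with wL3 replicate 1 as the only wL3 library it was not called (log2 fold change -0.20, adjusted p = 0.0551, edgeR). The ratio of E2f1 to Rbf in TPM was 2.73, 3.43 and 2.91 at 2h APF and 2.20, 2.26 and 2.06 at wL3. It was higher in every 2h APF library, which already follows from the rise of E2f1 and the fall of Rbf. E2f1 to E2f2 stood at 1.55, 1.90 and 1.64 at 2h APF and 1.61, 1.90 and 1.75 at wL3, which overlapped. E2f1 shares 283 exonic bases and E2f2 399 exonic bases with genes on the opposite strand. That of E2f1 is not among the quantified targets. That of E2f2, Mpp6, was not called (11.0 ± 1.23 CPM at 2h APF and 10.2 ± 0.183 CPM at wL3, SD, n = 3 each).

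Cyclin E drives S-phase entry with the kinase Cdk2, and dacapo, encoded by dap, inhibits the pair. CycE had 58.3, 61.6 and 58.8 CPM at 2h APF, against 85.7, 89.6 and 86.4 CPM at wL3 (log2 fold change -0.55, standard error 0.0372, adjusted p = 1.63e-05, edgeR). Cdk2 fell by more, with 23.7, 22.6 and 21.6 CPM at 2h APF, against 49.3, 52.9 and 50.6 CPM at wL3 (log2 fold change -1.17, standard error 0.0487, adjusted p = 2.56e-06, edgeR), and the 95% intervals of the log2 fold changes, -0.64 to -0.46 for CycE and -1.29 to -1.06 for Cdk2, did not overlap. For Cdk2, the annotation holds a gene on the opposite strand that shares 1010 of its exonic bases and is not among the quantified targets. dap had 58.3, 70.9 and 63.9 CPM at 2h APF, against 75.7, 89.1 and 84.3 CPM at wL3, with no overlap but a wide spread (log2 fold change -0.37, standard error 0.0863, adjusted p = 0.00757, edgeR, 95% interval -0.57 to -0.16). With wL3 replicate 1 as the only wL3 library, dap did not pass the threshold (log2 fold change -0.25, adjusted p = 0.106, edgeR). The ratio of CycE to dap in TPM was between 0.554 and 0.640 at 2h APF and between 0.643 and 0.725 at wL3, so that the nearest libraries of both stages almost met.

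The 3 subunits of CAF-1, which deposits new histones behind the fork, all fell. Caf1-180 had 51.3, 48.8 and 52.1 CPM at 2h APF, against 106, 114 and 107 CPM at wL3 (log2 fold change -1.10, standard error 0.0433, adjusted p = 2.20e-06, edgeR), and Caf1-105 had 14.5, 12.6 and 13.5 CPM at 2h APF, against 23.3, 26.2 and 26.6 CPM at wL3 (log2 fold change -0.91, standard error 0.0778, adjusted p = 5.09e-05, edgeR). Caf1-55, which also belongs to other chromatin complexes, fell least, with 161, 151 and 168 CPM at 2h APF, against 238, 236 and 247 CPM at wL3 (log2 fold change -0.59, standard error 0.0463, adjusted p = 3.45e-05, edgeR). Its 95% interval, -0.70 to -0.48, did not overlap those of the other CAF-1 subunits. Caf1-55 was also far more abundant than its partners, at 117 ± 7.08 TPM at 2h APF and 176 ± 5.69 TPM at wL3 (SD, n = 3 each), against 7.04 ± 0.571 TPM at 2h APF and 13.2 ± 1.05 TPM at wL3 (SD, n = 3 each) for Caf1-105. The ratio of the pair in TPM was 15.6, 16.8 and 17.4 at 2h APF and 14.3, 12.7 and 13.1 at wL3, with no overlap.

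Per length, the mean levels of the 47 genes ranged from 3.42 to 117 TPM at 2h APF, with a median of 20.8 TPM, and from 7.25 to 231 TPM at wL3, with a median of 45.4 TPM. At wL3 the order from the top was PCNA, RPA3, Top2, Caf1-55, geminin, Dp and RPA2, all above 100 TPM. PCNA (231 ± 17.6 TPM) and RPA3 (212 ± 6.73 TPM) differed by little more than the SD of PCNA, and RPA3 and Top2 (207 ± 6.40 TPM) by less than either SD. At 2h APF the order from the top was Caf1-55, PCNA, Top2 and E2f1, where Caf1-55 (117 ± 7.08 TPM) and PCNA (115 ± 8.49 TPM) differed by less than their spread, as did Top2 (101 ± 5.78 TPM) and E2f1 (101 ± 6.99 TPM, SD, n = 3 each throughout). Summed over the 47 genes, the level was 1523, 1433 and 1512 TPM in the 2h APF libraries and 2650, 2859 and 2848 TPM in the wL3 libraries, a mean at 2h APF of 53.4% of that at wL3. The 4 genes of E2F and Rbf alone summed to 94.1% of their wL3 mean.

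Most of the genes are represented by a single annotated transcript, and 10 have several, with 27 transcripts in all. Of the 25 transcripts tested, 16 fell, 1 rose and 8 were not called (edgeR over 17601 transcripts and other targets, of which 42.6% passed an adjusted p of 0.05 in either direction). In CycE, the transcript CycE-RC made up most of the gene's TPM, with 61.2% ± 4.46 at 2h APF and 59.4% ± 3.75 at wL3 (SD, n = 3 each), and CycE-RA, CycE-RB and CycE-RC fell (log2 fold changes -0.62, -0.55 and -0.54, adjusted p = 0.0214, 0.0489 and 0.00156, edgeR). The E2f1 transcript E2f1-RA was the one that rose (log2 fold change 0.25, adjusted p = 0.00804, edgeR), while E2f1-RC had a log2 fold change of 0.23 that was not called (adjusted p = 0.188, edgeR). In dnk, the share of dnk-RA was 67.9% ± 5.46 at 2h APF and 76.5% ± 1.71 at wL3 (SD, n = 3 each), and the libraries of the stages did not overlap. In Cdk2, that of Cdk2-RA was 73.3% ± 2.44 at 2h APF and 69.0% ± 1.78 at wL3 (SD, n = 3 each). The nearest libraries of the stages stood at 70.9% and 70.6%. The shares of Cdk2-RB and Cdk2-RC overlapped, as did all shares of the other genes with several transcripts. Differences in share were not tested. Reads that several transcripts of a gene share were divided between them by estimation, and the spread was large for some minor forms, as PCNA-RB had 0.258, 15.3 and 24.9 TPM at 2h APF and 6.29, 54.0 and 27.0 TPM at wL3.

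**Figure D3:**
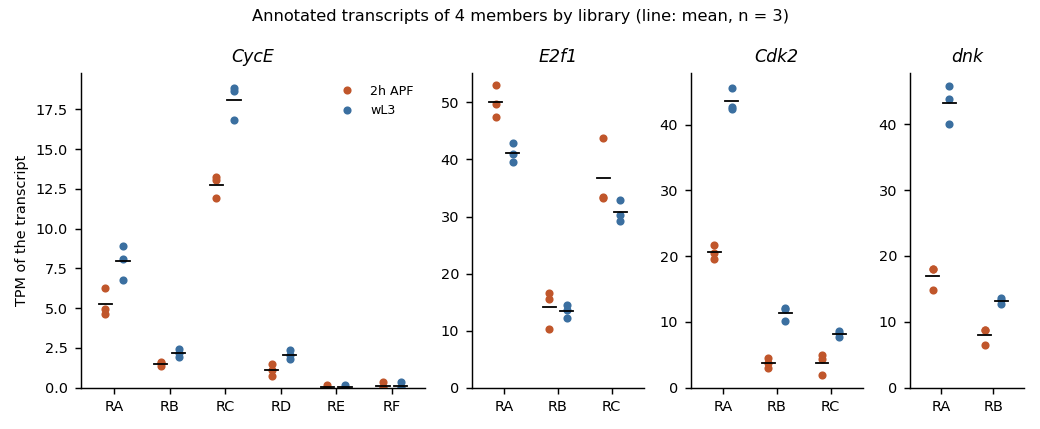
TPM (y axis, from 0) of each annotated transcript of CycE, E2f1, Cdk2 and dnk in each library, with 2h APF left of wL3 and the mean as a line (n = 3 each). The main transcript of CycE, Cdk2 and dnk is lower at 2h APF in every library, whereas E2f1-RA is higher.

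The genes are spread over the genome, with 11 on chromosome arm 2L, 12 on 2R, 6 on 3L, 12 on 3R and 6 on the X chromosome of BDGP6.54. The 4 closest pairs lay on 3 chromosome arms. RpA-70 (3R, 8262120 to 8264451, reverse strand) and Mcm2 (3R, 8264970 to 8267924, forward strand) are divergent genes with 518 bases between them, and both fell, by 0.79 and 1.44 on the log2 scale. E2f1 (3R, 21620304 to 21660871) and PolA1 (3R, 21666562 to 21671750), both on the reverse strand and 5690 bases apart, changed in opposite directions, by 0.25 and -1.36. dpa and Orc1, 22291 bases apart on 2R and both on the reverse strand, both fell, by 1.22 and 0.85 on the log2 scale. E2f2 and Mcm10, 23183 bases apart on 2L, changed in opposite directions, by 0.29 and -1.18. In 21 of the 47 genes, exonic bases overlap those of a gene on the opposite strand, with a median of 102 bases over the 24 overlaps. Some of the overlapping genes are not among the quantified targets. How common such overlaps are over all genes was not counted.

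The same comparison was made for 44 further genes of replication and S phase, of which 43 were tested. Among these, 37 fell, 3 rose and 3 were not called, the median being -0.63 on the log2 scale, and 11 of the 37 fell beyond 1 log2 unit. Lower were thus 86.05% of those tested. Of all genes tested, 36.9% were lower, 30.6% higher and 8.89% lower beyond 1 log2 unit. The largest changes were falls of Rbf2, the other retinoblastoma gene of flies, of the checkpoint mediator Claspin, the helicase RecQ4, the polymerase epsilon subunits PolE2 and PolE4, and Slbp, whose product binds histone mRNAs. Rbf2 had 9.49 ± 1.16 CPM at 2h APF and 28.1 ± 1.22 CPM at wL3 (SD, n = 3 each), a log2 fold change of -1.56 (adjusted p = 9.86e-06, edgeR). Claspin fell by 1.39 and Slbp by 1.29 on the log2 scale. The genes that rose, named after their values were seen, were Top1, the topoisomerase that relieves torsion (0.59), ago, whose product marks Cyclin E for degradation (0.28), and SuUR, a suppressor of replication in polytene cells (0.18). Those not called were chif, grp and mus304.

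Genes of the later cell cycle phases fell as well. Of 30 genes of mitosis and cytokinesis, 29 fell (96.7%, beside 36.9% of all genes tested). Bub1 was not called (log2 fold change 0.09, adjusted p = 0.131, edgeR). The median of the 30 genes was -1.18, beside -1.12 for the 47 replication genes. The largest falls were those of sti, tum, pav, feo, ncd and SMC2, which act in cytokinesis, on the spindle and in chromosome condensation. The citron kinase gene sti had 69.7 ± 3.48 CPM at 2h APF and 246 ± 16.8 CPM at wL3 (SD, n = 3 each), a log2 fold change of -1.82. Whether the lists differ was not tested.

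**Figure D4:**
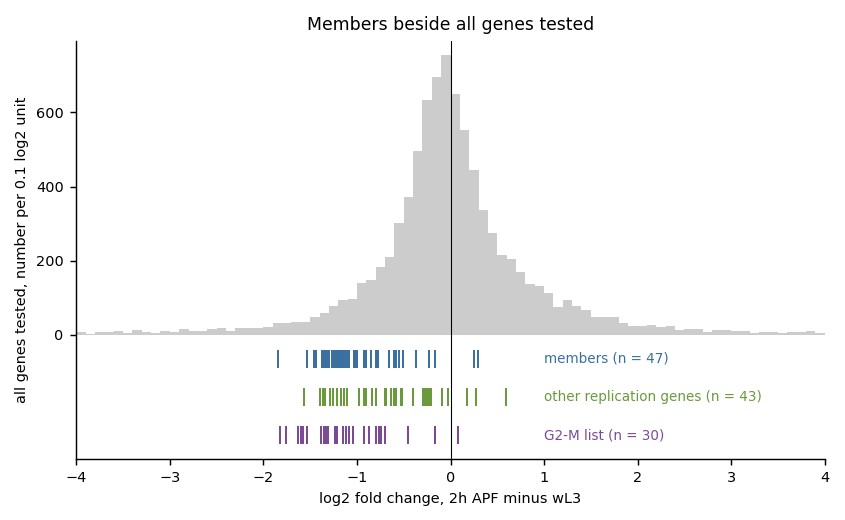
Number of genes tested per 0.1 log2 unit (grey, y axis) along the log2 fold change (2h APF minus wL3, x axis), with the 47 genes, the other replication genes and the genes of mitosis as ticks; 233 genes beyond 4 log2 units are not drawn. The ticks lie mostly between -1.5 and -0.5, left of the peak of all genes near 0.

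RNA of other cell types moved between the stages too. Fat body and muscle marker RNA was highest in wL3 replicates 2 and 3. Replicate 1, which had least of it, was the lowest wL3 library for 37 of the 47 genes (78.7%, against 37.5% of all genes tested). With replicate 1 as the only wL3 library, the median of the 47 genes was -1.06 on the log2 scale, beside -0.04 for all genes tested. That comparison was added after the data were seen, and the lone library is assumed in it to vary like the others. Of the 5 markers of the adepithelial myoblasts, which are dividing muscle precursors attached to the disc, twi, Him, zfh1 and htl were higher at 2h APF and stumps was not called, and the list summed to between 112 and 125 TPM at 2h APF and between 78.5 and 81.7 TPM at wL3. Of the 7 hemocyte markers, 5 fell, Ppn rose and crq was not called, and the 7 summed to between 180.1 and 195 TPM at 2h APF and between 169 and 216 TPM at wL3. Ppn alone gave 145, 139 and 141 TPM of that sum at 2h APF and 89.7, 74.5 and 86.3 TPM at wL3. Among the 5 hemocyte markers that fell, Hml, eater and He were near 0 at 2h APF, with means of 0.301, 0.503 and 0.754 CPM. Their wL3 means were 71.7, 34.9 and 11.9 CPM. NimC1 and Pxn still had means of 5.20 and 11.3 CPM at 2h APF, against 17.1 and 73.6 CPM at wL3. The 5 neuron markers summed to between 29.1 and 34.4 TPM at 2h APF and between 17.0 and 24.8 TPM at wL3, with 1 higher and 4 not called. Of the muscle markers 5 of 6 fell, of the fat body markers 1 of 5, and of the salivary gland markers all 5 tested. Of the leg disc markers 4 fell, 2 rose and 4 were not called. Beside these lists, 36.9% of all genes tested were lower and 30.6% were higher. In fat body marker RNA, wL3 replicate 1 (22.5 TPM) was not matched to the 2h APF libraries (between 98.4 and 401 TPM). The part of fat body, muscle, myoblasts, hemocytes, neurons and salivary gland cells in the result was not tested. Nothing in the labels says that the replicates came from separate animals, so the p-values measure only the spread between these libraries, which may be technical.

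**Figure D5:**
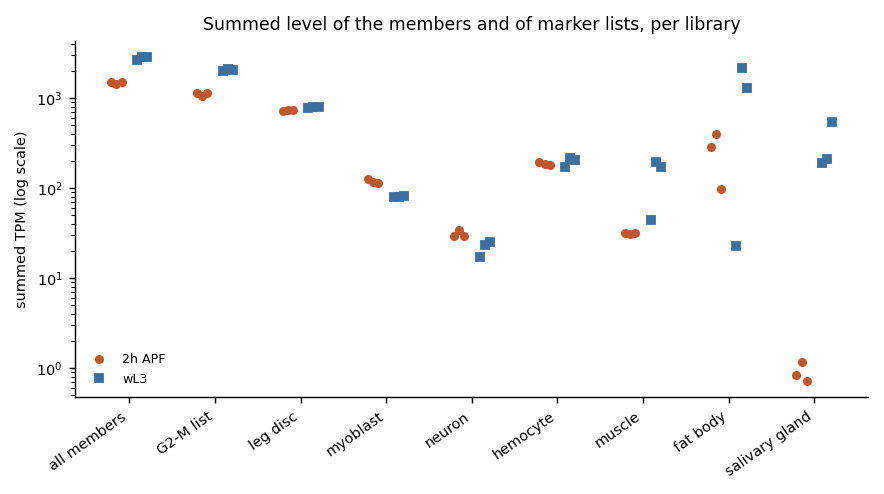
Summed TPM (y axis, log scale) of the 47 genes, of the genes of mitosis and of marker lists of several tissues in each library, with 2h APF left of wL3. The 47 genes sum to between 1433 and 1523 TPM at 2h APF and between 2650 and 2859 TPM at wL3, while the fat body markers range from 22.5 to 2132 TPM among the wL3 libraries alone.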

How the data were processed

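For each stage, 2h APF and wL3, paired-end sequences came from 3 polyA+ RNA libraries of leg discs. The authors assigned the reads with kallisto to Ensembl 74 transcripts with additional lincRNAs; their processing notes name dm3, and versions and strand settings are not given in the sources used here. For each library they deposited estimated counts and TPM (scaled by effective length within the library) of 42506 targets, not normalized across libraries. Per the file headers, target lengths in bases are also given.

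Of the targets, 27011 had a FlyBase identifier held by the BDGP6.54 annotation (Ensembl), and these carried at least 96.4% of the counts of every library. For each gene, its targets' estimated counts were added and then rounded. Genes with the same values in all libraries and at least 10 counts in total (64 groups, 198 genes) were counted once, which left 15125 genes. Of the 47 genes, 45 were matched by symbol and 2 by a RefSeq synonym (Release 6). Depth was between 24395318 and 33373176 counts per library. The interval of a gene covers both its counting error and the spread between libraries.

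The test was the quasi-likelihood test of edgeR 4.0.16 under R 4.3.3, after filterByExpr and TMM scaling, with p-values adjusted by Benjamini-Hochberg and no block for replicates. The standard error is the log2 fold change divided by the square root of F. The calls were tested on simulated data. Far fewer genes were changed there than were called here, so the simulation does not test the calls at this extent of change. An exact permutation test of 3 libraries against 3 cannot give a p under 0.1 and was not used. Alternatives were DESeq2 1.42.0, total library size, other filters, counts rescaled from TPM, limma 3.58.1 on log2 TPM with pseudocounts of 0.5 and 0.1, added unmatched targets, a replicate block, a fold threshold and leaving out each library. The genes, lists and tests were chosen with earlier results of these data known. All 47 genes could be named; of the 2 comparison lists, the 6 genes with the largest called change and no overlap, with exceptions named as such. Promoter sequences were not used here, so the planned count of E2F and DRE motifs was not made. CTPsyn and Sgs4 were not analysed here.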

Additional observations from a re-analysis of the deposited data

How the results depend on the processing

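The count of 44 genes lower and 2 higher stood at 44 or 45 lower and 2 higher with DESeq2, total library size, the other filters, rescaled counts, limma on TPM, added targets and each library left out, and at 44 and 2 with the replicate block. The labels do not say whether the replicate numbers pair the libraries. The deviations of same-numbered libraries from their stage means correlated at 0.0232, 0.161 and -0.278, and those of other pairs between -0.288 and 0.292. Deviations from a stage mean are tied to each other, so these values cannot decide the question. The block gave 3062 genes lower and 2598 higher, against 3297 and 2734 without it. With wL3 replicate 1 as the only wL3 library, the median of the 47 genes was -1.06 on the log2 scale, beside -0.04 for all genes tested. Beyond 1 log2 unit, 29 of the 47 were lower and 0 higher, and of all genes 794 were lower and 870 higher. With glmTreat against a log2 fold change of 1, 20 of the 47 were lower and 0 higher, and of all genes 473 were lower and 531 higher. PCNA (-0.99) and geminin (-0.997) lay just short of that fold threshold, and RnrS (-1.01) and CDC45L (-1.02) just past it.

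Total library size in place of TMM moved the median of all genes by -0.11 on the log2 scale and gave 4107 genes lower and 2218 higher, so that 64.9% of the called genes were lower, against 54.7% with TMM. The distance of the median of the 47 genes from that of all genes was -1.08 under both scalings. Of 799 values of single genes under the alternatives, 795 stayed on their side of the threshold and none changed direction. The exceptions were Cdc6 with total library size and E2f2, Rbf and dap with a single wL3 library, where fewer libraries were compared. Orc6, with between 87 and 228 counts per library, had the widest interval of the list.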
